A study of Macaca mulatta with 5 samples.

Results

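The splicing factor and hnRNP genes described here are 104 of the 14132 genes named on a rhesus macaque expression array, and 229 of its 24956 probe sets outside the array controls that carry 1 gene symbol. They were chosen by symbol alone: SRSF, HNRNP, SF3A and SF3B, SNRP, PRPF, U2AF, RBM and LSM genes, together with the ESRP, RBFOX, PTBP, NOVA, CELF and MBNL families. By role they were 8 SR protein genes, 16 hnRNP genes, 8 SNRP genes for Sm proteins and other proteins of the U1 and U2 particles, 9 LSm genes, 10 genes of branch site and 3' splice site recognition, 10 PRPF genes, 15 regulators known for tissue-specific splicing and 28 RBM genes. Of 35 members chosen to be described whatever their value, 26 had a probe set with their symbol alone, while ESRP1, RBFOX3, CELF2, MBNL1, SRSF1, SRSF2, SRSF3, SF3B1 and RBM24 were not analysed here.

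Cells of the rhesus embryonic stem cell line 366.4 were taken through a staged culture aimed at serotonin neurons, and total RNA from each stage was hybridised to 1 array. All 5 arrays therefore come from a single line with no genetic change or drug contrast, and nothing below can be checked against replicates. The stages were embryonic stem cells at passage 13 on mouse embryonic fibroblasts (ESC), embryoid bodies collected after 6 to 8 days (EB), neurospheres kept 7 to 9 days in medium with N2 supplement (N1), neurospheres expanded for another 7 to 9 days with FGF4 (N2), and the same culture left to mature without FGF4 on a reduced growth factor surface (N3). The titles call N2 and N3 proliferating and differentiating serotonin neurons.

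Pre-mRNA splicing is carried out by the spliceosome, whose U1, U2, U4 and U5 particles are each built on a ring of Sm proteins, while the U6 particle carries a ring of LSm proteins. SR proteins and hnRNP proteins bind exons and introns and favour or hinder the use of nearby splice sites. Neural differentiation is known for a change of regulators: PTBP1, which represses neuronal exons, gives way to its paralog PTBP2, and the RBFOX, NOVA and CELF proteins set neuronal exon choices, whereas ESRP proteins and RBM47 act in epithelia.

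Signals are array intensities on a linear scale, with every array scaled to a mean of 500 after trimming 2% at each end. Values under a floor of 100 have no order and were set to 100 for ratios, and each gene is represented by its brightest probe set (highest mean log2 signal) unless stated. Between 95 and 98 members lay above the floor on each array. Of the 104, 92 did so on all 5 arrays and 4 on none: NOVA2, CELF5, RBM43 and RBM46. The signal ratio of 3' to 5' actin, which grows as RNA shortens, stood at 1.73 (ESC), 15.19 (EB), 5.43 (N1), 25.21 (N2) and 8.63 (N3). The name of the 3' actin probe set, but not of the 5' one, marks it as one that may bind transcripts of related genes. For GAPDH the ratio was 1.94 (ESC), 2.78 (EB), 1.69 (N1), 7.1 (N2) and 2.1 (N3). Because N1 and N3 lay nearer each other in the actin ratio than either lay to N2, a comparison of N3 with N1 was added after the data had been seen. Among the neuron markers, 8 of 10 had a probe set and their summed signal was 11229 (ESC), 5063 (EB), 24763 (N1), 38883 (N2) and 64749 (N3). STMN2 gave 24814 of the N3 sum. SYT1 was highest in ESC, at 4177 against 2984.5 in N3, and TUBB3 read 3684 in ESC and 7590 in N3. For the serotonin identity in the titles, 5 of 7 markers had a probe set: TPH2, the enzyme that defines these neurons, read between 5 and 16.2 on the 5 arrays, and FEV, a transcription factor of the same neurons, did not exceed 121. Of GATA2, GATA3 and SLC18A2, which other cell types also express, GATA2 and GATA3 were above the floor on all 5 arrays and SLC18A2 from EB on. The 5 summed to 662, 4409, 1926, 1776 and 1243 from ESC to N3, of which GATA3 gave 348, 3912, 1418, 1436 and 895. Skeletal muscle markers, 4 of 6 with a probe set, summed to 2980, 2358, 2392, 7078 and 28686 in that order.

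Between the first and the last stage, 7 of 12 measured tissue regulators of splicing were higher past 2-fold (58.3%, against 17.2% of all named genes). Of these, RBFOX1, CELF3 and CELF4 were measured through the N3 array alone, so they could only be counted as higher. Among the 8 SNRP genes, 4 were lower (50.0%, against 16.4%), including SNRPE, whose probe sets disagree. A gene is counted when its ratio is at least 2-fold and at least 1 of the compared arrays reads above the floor. From ESC to N3, 11 of 98 measured members were higher (11.2%, against 17.2% of all named genes) and 18 were lower (18.4%, against 16.4%). The median log2 ratio was -0.46 over the members and -0.13 over all named genes. Tissue regulators gave 7 of the 11 higher members, among them MBNL2, whose probe sets disagree, whereas the 18 lower ones came from all 8 roles, with 4 SNRP genes, 4 hnRNP genes and 3 LSm genes among them. In bulk RNA, fewer cells of a type and less RNA per cell cannot be told apart.

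**Figure D1:**
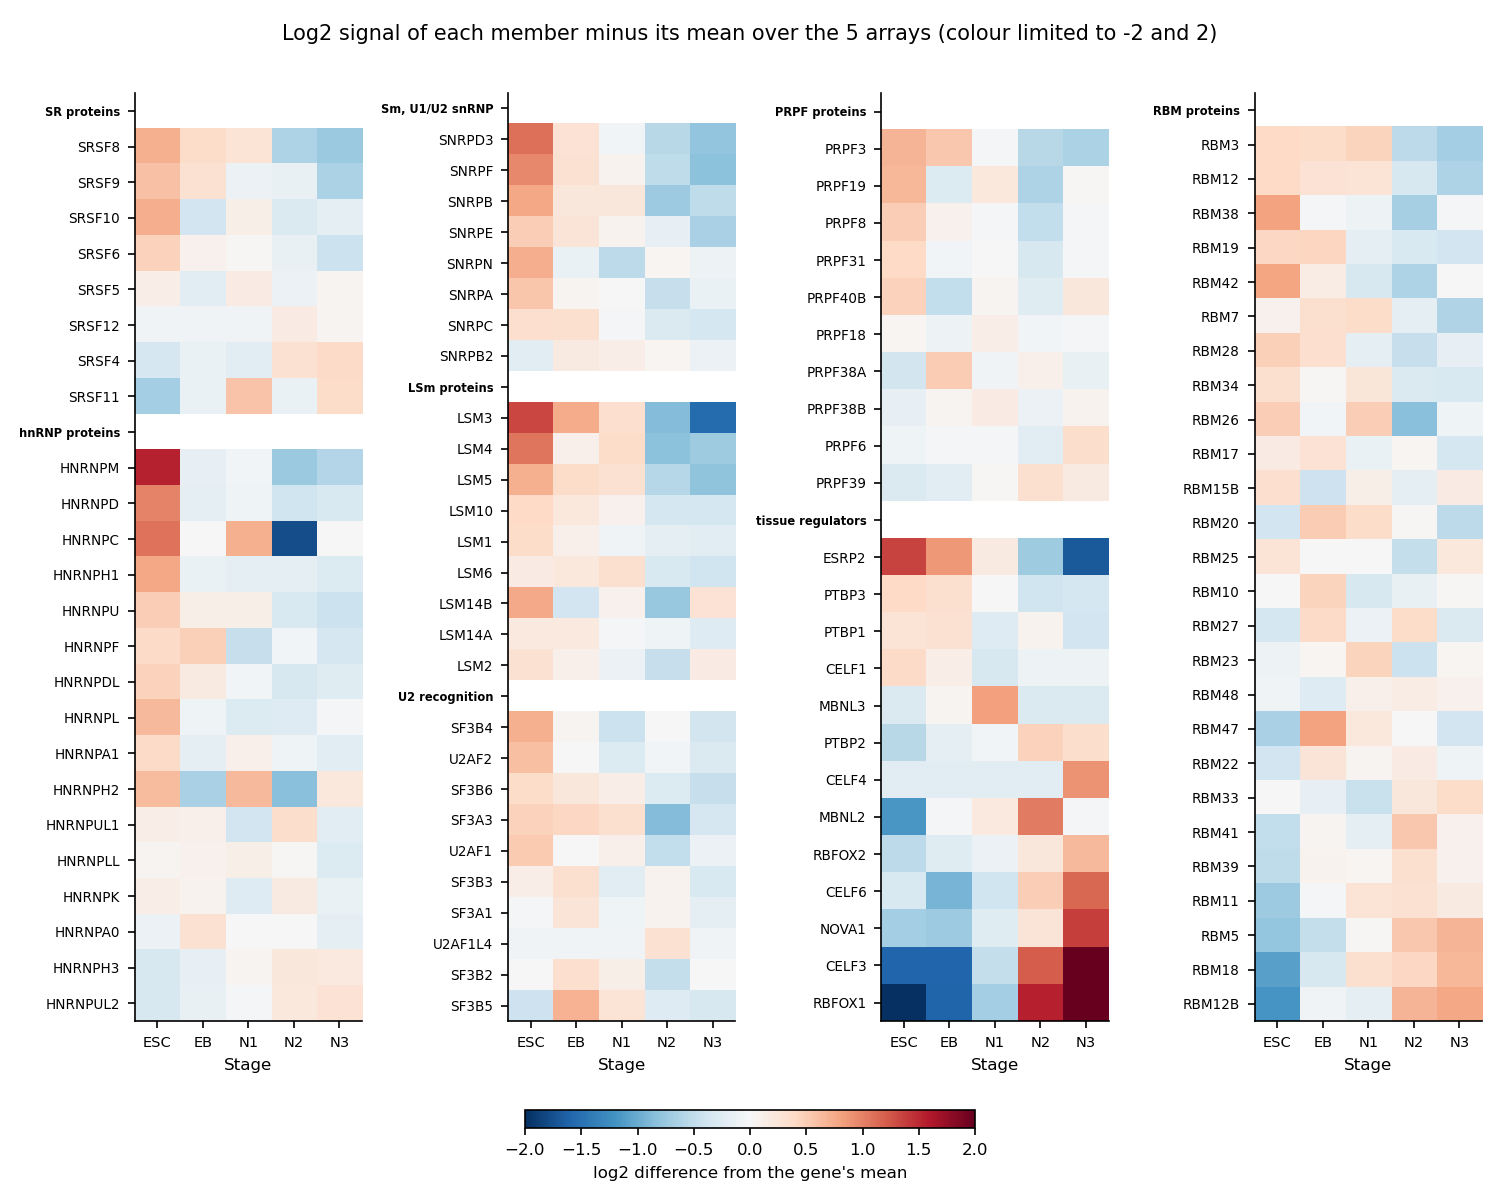
Log2 signal of the 100 members that exceeded the floor on at least 1 array, as the difference from the gene's own mean over the 5 stages (columns, 1 array each), grouped by role with blue below and red above the mean. SNRPD3, SNRPF and LSM3 pass from red in ESC to blue in N3, and RBFOX1, CELF3 and NOVA1 pass from blue to red.

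RBFOX1, which binds UGCAUG in introns and is expressed in neurons, heart and skeletal muscle, had the widest range of all members. Its signal was 10.2 (ESC), 167 (EB), 315 (N1), 1477 (N2) and 4189 (N3). Each stage lay above the one before, and N3 was at least 41.9-fold above ESC (ESC under the floor) and 13.3-fold above N1. Its other probe sets read 39.9, 137, 267, 995 and 2438, and 93.0, 71.3, 113, 660.4 and 2003. All 3 thus placed N3 highest and N2 next. The summed neuron, skeletal muscle and heart muscle markers were also highest in N3. Of the heart sum of 25886 in N3, ACTC1 gave 20334, while TNNT2, MYL7 and MYH6 were highest in EB. The part of all these markers in the RBFOX1 values was not tested.

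RBFOX2, the broadly expressed paralog, was already high in ESC and climbed less: 5541, 6753, 7359, 9265 and 12433 from ESC to N3, a 2.24-fold difference. Its second probe set followed the same course from 603 to 3898, but probe set 3 read 2394, 1045, 2259, 1094 and 3112, low in EB and N2. NOVA1, a neuron-specific regulator that binds YCAY clusters, stood at 394 (ESC), 383 (EB), 531 (N1), 758 (N2) and 1649.9 (N3). ESC and EB differed little and N3 was 4.18-fold above ESC. The second NOVA1 probe set, at or near the floor through N1, reached 437 in N3.

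The CELF family divided. CELF3, a brain-enriched member, read 69.3 (ESC), 81.0 (EB), 217 (N1), 694 (N2) and 1626 (N3), which put N3 at least 16.3-fold above ESC and 7.49-fold above N1. Its second probe set showed much less, with 281, 242, 275, 171 and 418, so the size of the CELF3 difference rests on 1 probe set. CELF6 was 154 (ESC), 69.7 (EB), 144 (N1), 266 (N2) and 421 (N3), 2.74-fold above ESC. CELF4 left the floor in N3 alone, at 217. CELF1, the ubiquitous member, ran the other way within a narrow span, from 12282 in ESC and 10391 in EB to 7525 in N1, 8805 in N2 and 8821 in N3.

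From ESC to N3, PTBP1 and PTBP2 differed in direction, and neither passed 2-fold. The PTBP1 signal was 19041 (ESC), 19369.5 (EB), 13171 (N1), 16539 (N2) and 12046 (N3), so that N3 was 1.58-fold below ESC. A second probe set followed it, from 14614 in ESC to 7718 in N3, a log2 ratio of -0.92, while the dimmer probe sets 3 and 4 gave 0.59 and -2.47. PTBP2 stood at 3276, 4163, 4616, 6559 and 6089.8, with N3 1.86-fold above ESC. Its second probe set gave 1052, 346, 1243, 763 and 1246, a log2 ratio of 0.24. PTBP3 was 1.68-fold lower in N3 (2939.8 in ESC, 1751 in N3). Levels of different probe sets cannot be set against each other, so these values do not show which PTBP transcript was more abundant.

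ESRP2, an epithelial regulator, was lower at every step: 818 (ESC), 582 (EB), 362 (N1), 195 (N2) and 33.6 (N3). With N3 under the floor, it was at least 8.19-fold below ESC and at least 3.62-fold below N1. The gene has 1 probe set. RBM47, another epithelial RNA-binding protein, gave probe sets that disagreed. Its brightest by mean log2 read 359.5 (ESC), 988 (EB), 649 (N1), 567 (N2) and 434 (N3), while the brightest by plain mean read 998, 1657, 1006, 149 and 104. Probe sets 3 and 4 went from 1150.3 to 91.8 and from 846 to 120.4, and probe set 5 from 185 to 52.0. Thus 4 of its 5 probe sets put N3 below ESC, by log2 ratios of -3.26, -3.52, -2.81 and -0.89 (sets 3 and 5 with N3 set to the floor). Simple epithelium markers, 7 of 8 with a probe set, summed to 27863, 29741, 16677, 6685 and 3186 over the stages. CLDN6 gave 17809.5 of the ESC sum and KRT19 gave 17852 of the EB sum. CDH1 was under the floor throughout, and EPCAM went from 3036 in ESC and 6065 in EB to 547 in N3. KRT18 went the other way, from 139 in ESC to 691 in N3. The part of these markers in the ESRP2 and RBM47 values was not tested.

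MBNL2, a regulator of late developmental splicing, read 394 (ESC), 857 (EB), 1009.9 (N1), 1821 (N2) and 872 (N3). Its other probe sets, at 229, 154, 296, 175 and 339.9 and at 282, 105, 243, 144 and 193, ran differently, both with N2 below N1 and N3, so its direction is not settled. MBNL3 exceeded the floor only in EB (127) and N1 (216). Over the 12 measured tissue regulators the median log2 ratio from ESC to N3 was 1.13, and it stayed between 0.57 and 1.25 under the alternatives. The lower end came from second probe sets, which only some of them have. RBFOX1, CELF3 and CELF4 entered this comparison only through the N3 array, and ESRP2 only through the ESC array, so the median is a description and no support.

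**Figure D2:**
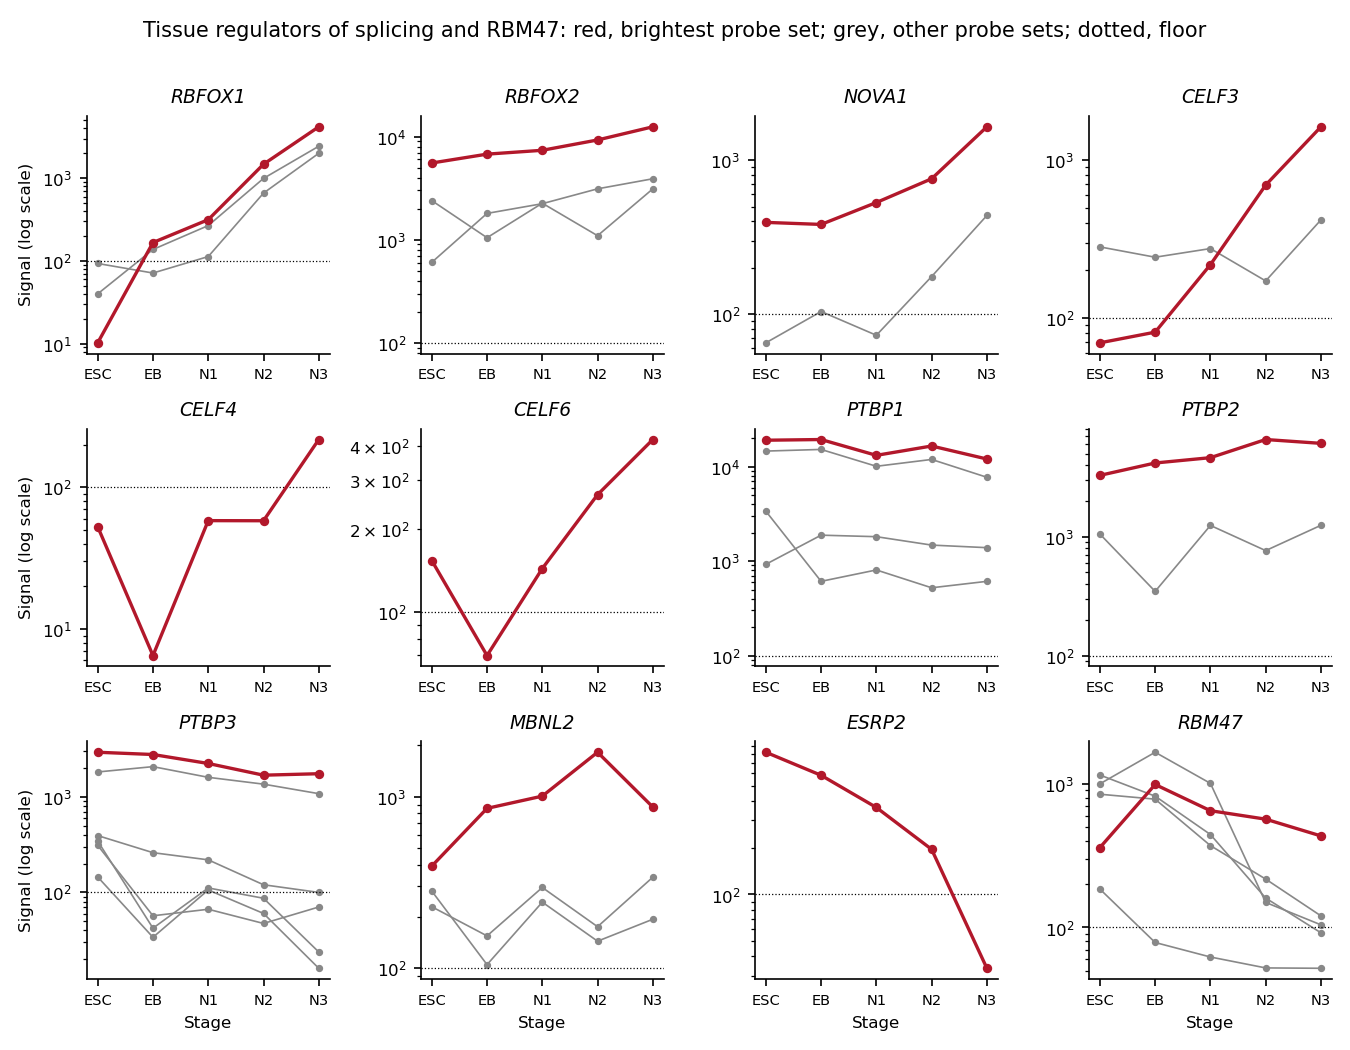
Signal on a log axis over the 5 stages for 11 tissue regulators and RBM47, 1 array per stage, with the brightest probe set in red, other probe sets above the floor in grey and the floor of 100 dotted. RBFOX1 climbs to 4189 on its brightest probe set, ESRP2 drops to 33.6, and the probe sets of MBNL2, RBM47 and CELF3 part from each other.

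Brightest probe sets of the 5 Sm genes analysed were all lower in N3 than in ESC, 4 of them past 2-fold. The Sm genes SNRPD1, SNRPD2 and SNRPG were not analysed here. SNRPD3, the SmD3 protein, was 7963 (ESC), 4550.4 (EB), 3566 (N1), 2526 (N2) and 2155 (N3), a 3.69-fold difference. SNRPF, the SmF protein, went from 13944 through 8825, 7489 and 5022 to 4065, 3.43-fold lower. Both were lower at each of the 4 steps, and each has 1 probe set.

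SNRPB, which encodes SmB, read 7734, 5295, 5316, 2734 and 3195, 2.42-fold lower in N3, and its second probe set gave 7552, 4312, 5379, 1449.8 and 2619. SNRPE, the SmE protein, went from 19755 in ESC through 16838, 14769 and 12539 to 8995 in N3 on its brightest probe set, 2.2-fold lower, but the name of this set marks it as one that may bind transcripts of related genes. Its unmarked second set went from 169.8 in ESC to 407 in N3, a log2 ratio of 1.26, so the direction of SNRPE depends on the probe set. SNRPN, the SmB paralog of neurons and an imprinted gene, was 28135 (ESC), 15567 (EB), 11806 (N1), 17494 (N2) and 15960.3 (N3), highest in ESC and lowest in N1. SNRPB and SNRPN have nearly the same coding sequence, so their values are uncertain as measures of either gene alone.

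Other proteins of the U1 and U2 particles were lower by less than 2-fold or level. SNRPA, a U1 protein that binds the RNA of the particle, went from 7032 in ESC to 4364 in N3, and SNRPC, a U1 protein at the 5' splice site, from 7427 to 4629. SNRPB2, a protein of the U2 particle, read 4252 and 4571. Over the 8 SNRP genes the median log2 ratio from ESC to N3 was -0.98, with 4 genes lower (50.0%, against 16.4% of all named genes) and none higher past 2-fold, and from N1 to N3 it was -0.52, with none past 2-fold.

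Of the LSm genes, LSM3 had the largest difference. Its signal was 9354 (ESC), 6245 (EB), 4714 (N1), 2035 (N2) and 1279 (N3), which placed N3 7.31-fold below ESC and 3.69-fold below N1. LSM4 went from 9075 through 4666, 5582 and 2442 to 2636, 3.44-fold lower, with its second probe set at 10732, 3124, 5266, 1096 and 2309. LSM5 was lower at every step, from 5989.5 to 4686, 4488, 2461 and 2078, 2.88-fold in all. That set carries the mark for possible binding of related transcripts, and the unmarked second one showed 447, 732, 743, 453 and 370.1, a log2 ratio of -0.27.

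The other U6 ring genes analysed moved less, while LSM7 and LSM8 were not analysed here. LSM6 was 4149.6 in ESC, 4639.5 in N1 and 2816 in N3, and LSM2 was 738, 549.6 and 673. LSM1, which takes part in mRNA decay in place of a nuclear ring member, went from 3544 to 2378, and LSM10, part of the U7 particle for histone pre-mRNA, from 2459 to 1467. All 9 LSm genes lay below 0 on the log2 scale from ESC to N3 (56.0% of all named genes did), with a median of -0.58 against -0.13 for all named genes. Past 2-fold were 3 of them (33.3%, against 16.4%), of which LSM5 fell under 2-fold without the marked probe sets. From N1 to N3 the same 3 genes passed 2-fold, LSM3 and LSM4 and LSM5, with a median of -0.44. In that comparison 5 of 99 members were higher (8.42% of all named genes were) and 7 were lower (6.67% of all named genes).

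Medians of the SNRP and LSm genes stayed below 0 from ESC to N3 under every alternative run, between -1.53 and -0.54 and between -0.71 and -0.27. The ends of -1.53 and -0.27 came from second probe sets, which only some of these genes have, and are the values of SNRPB and LSM5. Proliferation markers moved beside them: 9 of 10 had a probe set, and they summed to 66423 (ESC), 55669 (EB), 45009 (N1), 33657 (N2) and 25368 (N3). The actin ratio differed too, at 1.73 in ESC, 5.43 in N1 and 8.63 in N3, while the GAPDH ratio was 1.94, 1.69 and 2.1. Against N1, no SNRP gene and 3 LSm genes passed 2-fold. The part of the proliferation markers and of RNA quality in the SNRP and LSm values was not tested.

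**Figure D3:**
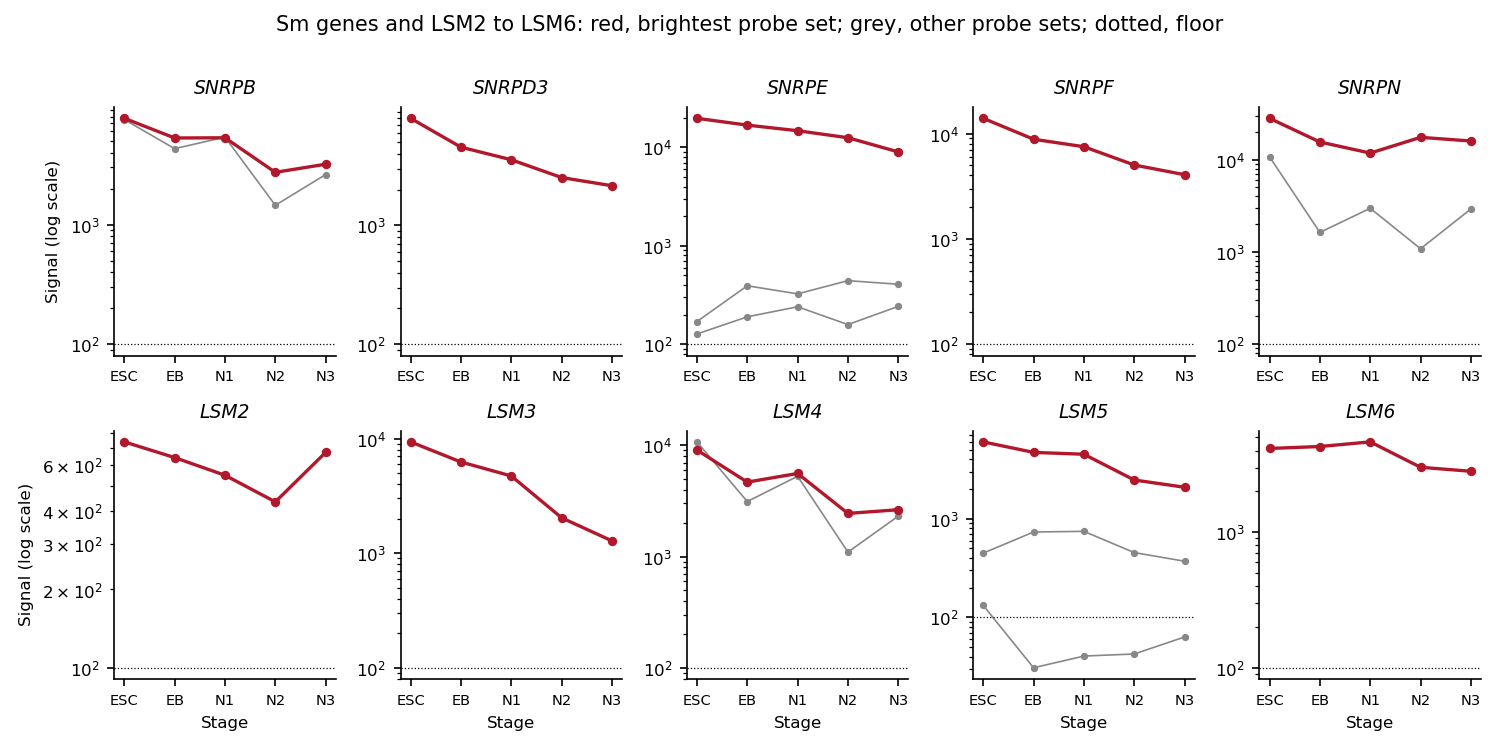
Signal on a log axis over the 5 stages for 5 Sm genes and LSM2 to LSM6, 1 array per stage, with the brightest probe set in red, other probe sets above the floor in grey and the floor of 100 dotted. LSM3 drops from 9354 to 1279 and SNRPD3 from 7963 to 2155, whereas the dim SNRPE probe sets climb while the bright one declines.

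Of the 16 hnRNP genes, 8 were highest in ESC (36.4% of all named genes were). Between ESC and EB, where several were lower, the actin ratio went from 1.73 to 15.19 and the GAPDH ratio from 1.94 to 2.78. The part of RNA quality in these values was not tested. HNRNPD, also called AUF1, which binds AU-rich elements, was 14706 (ESC), 6507 (EB), 6992 (N1), 5645 (N2) and 5995 (N3). HNRNPH1, which binds G-rich runs, followed the same course from 12785 to 6840.2, 6597, 6544 and 6171. On these brightest probe sets both stayed within a narrow band after EB. From ESC to EB, HNRNPD probe sets 2 to 5 gave log2 ratios of -0.49, -0.14, 0.18 and 0.81. HNRNPH1 sets 2 to 6 were lower in EB than in ESC. From EB to N1 they gave 0.52, 0.41, 0.88, 1.34 and 1.64, the last 2 with EB set to the floor. From ESC to N3, HNRNPD stayed past 2-fold in 6 of 9 alternatives and HNRNPH1 in 4.

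HNRNPM gave 7286 in ESC and 2254, 2435, 1506 and 1683 after it, 4.33-fold lower in N3. That probe set carries the mark for possible binding of related transcripts, and the unmarked second set read 239, 365, 317, 332 and 436 while the dim probe set 3 went from 460.0 to 276, so the direction for HNRNPM is not settled. HNRNPC, the core protein that coats long introns, was 7705 (ESC), 3597 (EB), 5949 (N1), 1065 (N2) and 3596 (N3). Its single probe set carries the same mark, and its lowest value was on the array of the highest actin ratio.

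HNRNPH2 had the same zigzag at low signal, with 278, 114, 280.2, 68.6 and 206. HNRNPK was nearly level (20377, 19602, 15561, 21025 and 16918), while HNRNPA1 (11996, 8154, 9895, 8714 and 7834), on a probe set with the same mark, was 1.53-fold lower in N3 than in ESC. HNRNPU, a scaffold protein of the nucleus, went from 5525 to 2903 on its brightest probe set, under 2-fold, while probe sets 2 and 3 went from 4092 to 1177 and from 477.5 to 127, log2 ratios of -1.80 and -1.91. HNRNPUL2 went from 3271 up to 5024. Over the 16 hnRNP genes the median log2 ratio from ESC to N3 was -0.65, with 14 below 0 (87.5%, against 56.0% of all named genes), 4 lower past 2-fold (25.0%, against 16.4%) and none higher (against 17.2%). It stayed between -0.65 and -0.33 under the alternatives. From N1 to N3 it was -0.18, with no gene past 2-fold, and turned to 0.05 without the marked probe sets.

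Among SR proteins the directions were mixed. SRSF9 was lower at each step (16826, 13839, 10227, 10058 and 7201), a 2.34-fold difference. SRSF8 went from 923 through 730.2, 684 and 366 to 338, 2.73-fold lower, but its second probe set, at 116 in ESC and 171 in N3, pointed up. SRSF11 was 220.2 (ESC), 319 (EB), 523 (N1), 321 (N2) and 452 (N3), 2.05-fold higher at the end. SRSF4 went from 3463 to 5733 and SRSF5 stayed level at 7791 and 7418. SRSF10, a repressor when dephosphorylated, was 3361 in ESC and 1556 in EB, and 1799 in N3. The median of the 8 genes from ESC to N3 was -0.48, and 0.56 where second probe sets were used.

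Of the genes that recognise the branch site and the 3' splice site, 1 passed 2-fold from ESC to N3. U2AF1, which reads the AG at the intron end, was 19174 (ESC), 13246 (EB), 14328 (N1), 9488 (N2) and 12336 (N3). U2AF2, its partner on the polypyrimidine tract, was 5858, 3907, 3208, 3729.9 and 3180.5. That gene was SF3B4, with 3811, 2427, 1738, 2351 and 1809, a 2.11-fold difference. Its single probe set carries the mark for possible binding of related transcripts, and the difference was under 2-fold with arrays scaled to equal medians or to the hybridisation controls. SF3A3 was 3915, 3772 and 3519.9 up to N1, then 1560.5 in N2 and 2246 in N3, while its second probe set read 913 in N1 and 1647 in N2, the opposite step. SF3B5 stood out in EB at 6508 against 3006 in ESC, and its second probe set read 1056 against 894. Of the 9 measured genes of this role, 7 lay below 0 from ESC to N3 (77.8%, against 56.0% of all named genes) with a median of -0.64, and 1 was lower past 2-fold (11.1%, against 16.4%).

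PRPF genes, which serve the U4, U5 and U6 particles and the remodelling of the spliceosome, had a median of -0.15 from ESC to N3. PRPF3, a U4/U6 protein, was the member past 2-fold, at 1132, 1026, 688, 476 and 453. PRPF8, the large protein at the centre of the spliceosome, was 4958, 3748, 3439, 2509 and 3453. PRPF19, the ubiquitin ligase of the activated spliceosome, read 4643, 2439, 3385, 1909 and 2981. Both were lowest in N2.

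RBM genes, named for an RNA-binding motif rather than for one role, gave a median of -0.02 from ESC to N3 over 26 measured genes. Of these, 3 were higher past 2-fold (11.5%, against 17.2% of all named genes) and 2 were lower (7.69%, against 16.4%). The lower ones were RBM3 and RBM12, and RBM12 stayed past 2-fold in 3 of 9 alternatives. RBM5, a regulator of apoptotic gene splicing, climbed at every step, from 2456 to 3005, 4242, 6109.7 and 6700.1, 2.73-fold in all, and its second probe set, not steadily, from 839 to 2485. RBM18 also climbed at each step, from 532 to 901, 1403, 1501 and 1791, 3.37-fold. RBM12B was 567 (ESC), 1222 (EB), 1124 (N1), 2061 (N2) and 2186 (N3), 3.85-fold, while its second probe set went from 183 to 333.

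RBM3, a cold-induced RNA-binding protein, held at 5385, 5253 and 5565 through N1 and was 2832 in N2 and 2537 in N3, with its second probe set at 3664, 2255, 3839, 827 and 1404. N3 was 2.19-fold below N1. RBM20, the heart regulator of titin splicing, was low on every array: 143, 264, 239, 189 and 129, highest in EB. Heart muscle markers, 4 of 5 with a probe set, summed to 11146, 25315, 15561, 11458 and 25886. Of these sums ACTC1 gave 10670, 9360, 5561, 8083.5 and 20334. TNNT2, MYL7 and MYH6 were each highest in EB, at 3926, 9531 and 2498, against 2487, 1833 and 1232 in N3.

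**Figure D4:**
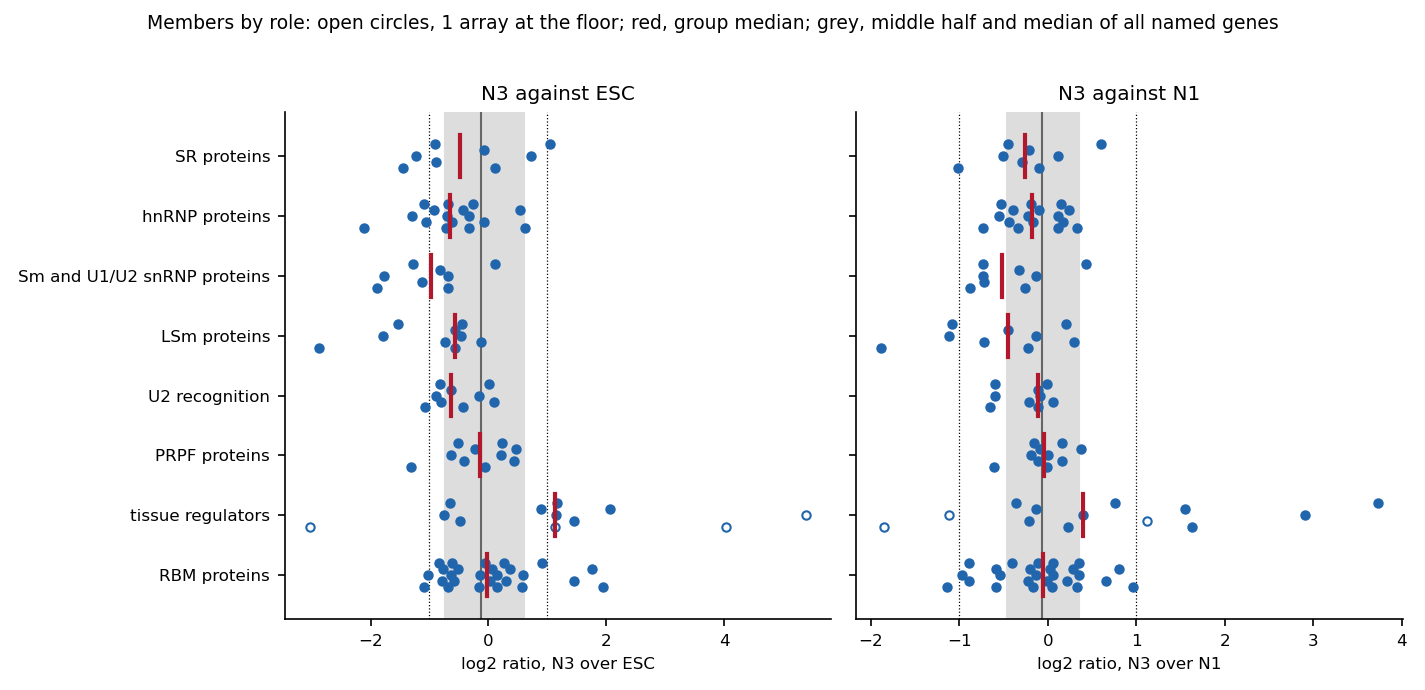
Log2 ratio of N3 over ESC (left) and N3 over N1 (right) for every measured member, 1 array on each side, by role, with the role's median in red, the span between the quartiles of all named genes shaded, 2-fold dotted and ratios with an array at the floor as open circles. SNRP genes centre at -0.98 and tissue regulators at 1.13 from ESC to N3, and at -0.52 and 0.40 from N1 to N3.

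Splicing genes outside the symbol rule were taken from 2 lists. Of 70 other spliceosome genes with a probe set, 1 was higher (1.43%, against 17.2% of all named genes) and 10 lower past 2-fold from ESC to N3 (14.3%, against 16.4%), with a median log2 ratio of -0.19. The U5 protein gene TXNL4A went from 9342 to 2724, the tri-snRNP gene ZMAT2 from 2603 to 546 and the export adaptor ALYREF from 1758 to 505, while ZRSR2, of the minor spliceosome, went from 113 to 298. Of 42 other measured splicing regulators, 8 were higher (19.0%, against 17.2% of all named genes) and 7 lower (16.7%, against 16.4%), with a median of -0.10. RBMS3 was 16.5-fold higher in N3 (238 in ESC, 3940.1 in N3) and PCBP4 5.12-fold (556 and 2847), and CLK1, a kinase of SR proteins, was 2.58-fold higher. RBPMS was 14.1-fold lower (7415 and 527), and RBPMS2 went from 10726 in ESC to 1024 in N3. WDR77, a partner of the methyltransferase that prepares Sm proteins for assembly, was 5.01-fold lower (3403 and 679). The paraspeckle partners NONO and SFPQ were 3.61-fold and 3.44-fold lower.

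Step by step, few members passed 2-fold. From ESC to EB, 4 of 97 were higher (12.1% of all named genes were) and 6 were lower (11.8% of all named genes). The higher ones were RBM47 and MBNL2, each on its brightest probe set with some others lower, SF3B5 and RBM12B, and the lower ones HNRNPM, HNRNPH2, HNRNPD, LSM14B, SRSF10 and HNRNPC. From EB to N1, HNRNPH2 and CELF3 were higher (5.15% of all named genes) and no member was lower (2.2%). From N1 to N2, RBFOX1 and CELF3 were higher (5.06% of all named genes), and 7 of 99 were lower (6.53%): HNRNPC, RBM26, LSM3, LSM4, SF3A3, HNRNPH2 and MBNL3. From N2 to N3, 7 of 99 were higher (4.78% of all named genes) and MBNL2 was lower (2.19%), on its brightest probe set only. The higher 7 were HNRNPC, RBFOX1, CELF3, NOVA1, LSM14B, CELF4 and HNRNPH2.

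Courses over all 5 stages were read on the 100 members above the floor at least once. The highest signal was in ESC for 46 of them (36.4% of all named genes), in EB for 17 (19.1%), in N1 for 12 (11.2%), in N2 for 12 (13.9%) and in N3 for 13 (19.3%). No step down and at least 2-fold in all was seen for CELF3, CELF4, RBFOX1, RBFOX2, RBM18 and RBM5, 6 of 100 (4.76% of all named genes). No step up and at least 2-fold was seen for 11 (4.74% of all named genes): ESRP2, HNRNPH1, LSM3, LSM5, PRPF3, RBM12, SNRPD3, SNRPE, SNRPF, SRSF8 and SRSF9. The median range over the stages was 1.93-fold for the members and 2.05-fold for all named genes, and 47 members spanned 2-fold or more (52.2% of all named genes).

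Some probe sets zigzagged, with EB and N2, the arrays of highest 3' to 5' actin ratio, both below the other 3 stages. Among brightest probe sets it was seen in 9 of 100 members (7.2% of all named genes): HNRNPH2, LSM14B, PRPF18, PRPF19, PRPF31, PRPF40B, RBM15B, SRSF10 and SRSF5. Among the members' other probe sets it was seen in 28 of 120 (16.8% over all named genes). The opposite zigzag, EB and N2 both above the rest, was seen in HNRNPA0, PRPF38A, RBM22, RBM27 and SF3A1, 5 of 100 (6.77% of all named genes). In SNRPN the second probe set read 10756, 1629.6, 2974, 1084 and 2925 where the first was highest in ESC without a second dip, and in HNRNPK probe set 4 read 4264, 781, 2174, 640.0 and 1974 where the first was nearly level. The values of HNRNPC and of the members counted above in the steps to and from N2 stand beside an actin ratio of 25.21, and the part of RNA quality in them was not tested. N3 and N1 had actin ratios of 8.63 and 5.43 and GAPDH ratios of 2.1 and 1.69. From N1 to N3, RBFOX1, CELF3, NOVA1 and CELF6 were more than 2-fold higher and LSM3, LSM4, LSM5, RBM3 and SRSF8 more than 2-fold lower. The second CELF3 probe set gave a log2 ratio of 0.60. Marker sums also differed between N1 and N3, with endoderm and liver at 47025 and 1584 and skeletal muscle at 2392 and 28686. The part of RNA quality and of the mix of cells in these differences was not tested.

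**Figure D5:**
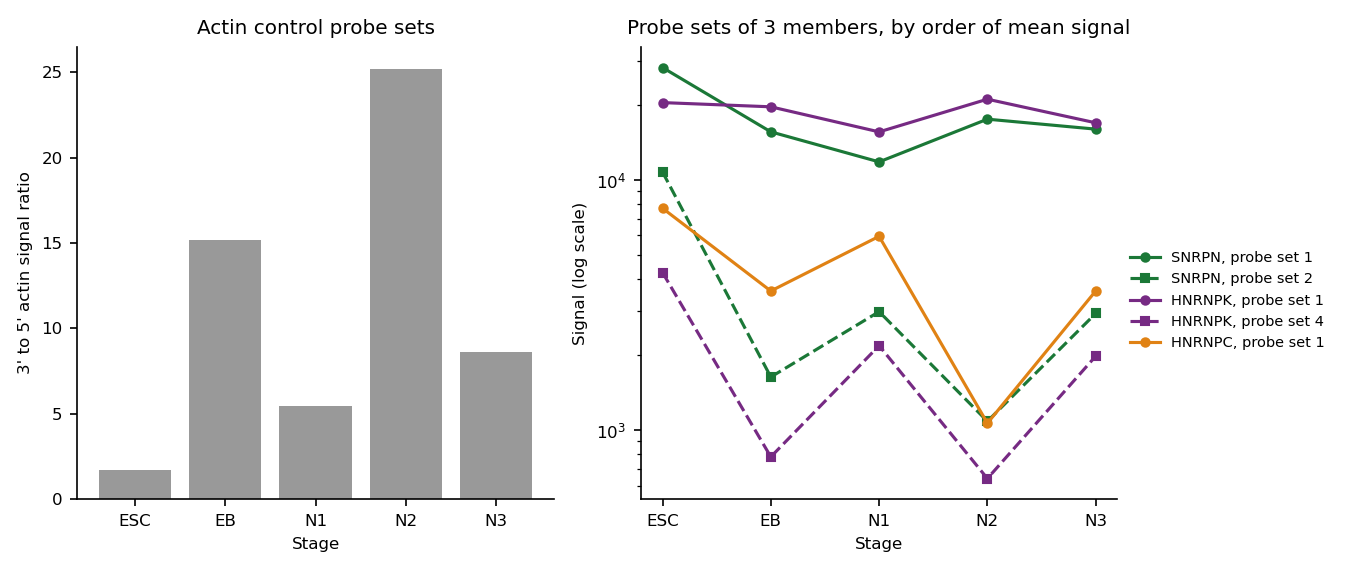
Left, bars of the 3' to 5' actin signal ratio on each array; right, signal on a log axis for SNRPN probe sets 1 and 2, HNRNPK probe sets 1 and 4 and the single HNRNPC probe sets over the same stages. The ratio peaks in EB (15.19) and N2 (25.21), where SNRPN set 2, HNRNPK set 4 and HNRNPC dip and HNRNPK set 1 does not.

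Probe sets of the same gene could also run against each other. From ESC to N3, 17 members past 2-fold had a second measured probe set, which had the same sign in 14 and passed 2-fold in 7. From N1 to N3 there were 7 such members, with the same sign in all 7 and 2-fold in 6. The disagreement between the brightest pair, taken as the SD of their difference in log2 ratio over the square root of 2, was 0.83 and 0.45 in these comparisons. It is a technical spread and not a replicate error.

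In HNRNPDL, the brightest probe set went from 17026 in ESC to 10399.8 in N3, while probe set 3 went from 1263 to 5142 and probe set 4 from 1652 to 4352. In HNRNPD probe set 5 went from 388 to 1397 while the first went from 14706 to 5995. HNRNPLL, a regulator known from lymphocytes, showed 3418 and 2719.7 on its first and 1219.7 and 3579.8 on its second. SRSF6 showed 7475 and 4030.1 on the first and 2542 and 4837 on the second. Which part of each transcript these sets read is not given in the sources used here. Probe sets of 1 gene past 2-fold in both directions were found in 2 of 60 members with a measured pair (HNRNPD and SNRPE) and in 3.81% of all such named genes. From ESC to EB there were 4 of 58 (HNRNPDL, MBNL2, PTBP1 and RBFOX2), against 3.02%.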

How the data were processed

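Total RNA of 5 stages was measured on 1 array each. The authors deposited 1 intensity per probe set and array, on a linear scale, and the submitters' processing notes name GCOS 1.0. Which algorithm produced the signals is not given in the sources used here, and the number of arrays limits the precision. Each array was scaled to a 2% trimmed mean of 500 over the probe sets outside 158 controls, floored at 100 and taken to log2 (Python 3.11.15, NumPy 2.4.6, pandas 2.3.3). Symbols came from GEO's platform annotation, and all 104 members matched RefSeq by Entrez identifier. A gene was read on its brightest probe set by mean log2 signal, out of those with a single symbol. The 5 probe sets that carry a member's symbol among several were not used.

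With 1 array a stage, no test, standard error or p-value exists. A gene was counted at 2-fold or more, and a ratio with a side at the floor is written "at least". The counting was checked on simulated data. Described whatever their value were 35 fixed members; to these came members past 2-fold with 200 or more on the brighter array and the 2 widest of each role. Any other member given with values was chosen after its values were seen, as were the probe sets quoted for disagreement. The members, lists and rules were chosen with earlier results of these data known. The alternatives were 8, and 1 more (brightest by mean signal) was added after seeing the data, as was N3 against N1.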

Additional observations from a re-analysis of the deposited data

How the results depend on the processing

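Each stage has 1 array, so no value could be recomputed without a replicate. No paired analysis was possible because each group holds 1 array. From ESC to N3, RBFOX1, NOVA1, CELF6, RBM5 and RBM18 (higher) and ESRP2, LSM3, LSM4, PRPF3, SNRPB, SNRPD3 and SNRPF (lower) stayed past 2-fold under every alternative that could be run for them. From N1 to N3, RBFOX1, NOVA1, CELF6, LSM3, LSM4, LSM5, RBM3 and SRSF8 did so. Selecting the brightest probe set by mean signal instead of mean log2 changed the probe set of RBM47 alone, to log2 ratios of -3.26 from ESC to N3 and 0.73 from ESC to EB.

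Equal medians gave 14 higher and 1 lower from ESC to EB with a median of 0.35, 1 higher and 3 lower from EB to N1, and 2 lower from N2 to N3. Quantile normalisation gave 7 higher from ESC to EB, 1 higher with a median of 0.029 from EB to N1, and 4 higher from N2 to N3. The hybridisation controls gave 9 higher and a median of 0.40 from EB to N1, 32 lower and -0.78 from N1 to N2, 0 lower and 0.17 from N2 to N3, and 17 lower from N1 to N3. With them the median of all named genes was itself 0.41 from EB to N1, -0.57 from N1 to N2 and -0.41 from N1 to N3, and equal medians put it at 0.41 from ESC to EB. A floor of 200 gave 0 higher from EB to N1 and 4 higher from N2 to N3, and no floor gave 3 lower from N2 to N3.

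Taking the median over probe sets gave 13 lower from ESC to EB, 1 lower and a median of 0.089 from EB to N1, 1 higher and 12 lower from N1 to N2, and 0 lower with a median of 0.089 from N2 to N3. Second brightest probe sets gave 13 lower from ESC to EB, 1 lower and 0.19 from EB to N1, 1 higher and 12 lower from N1 to N2, 0 lower and 0.053 from N2 to N3, and 3 higher from N1 to N3. Leaving out the probe sets marked for possible binding of related transcripts, 7 members were higher from ESC to EB.

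Single genes that reversed did so with the choice of probe set. HNRNPM had 0.61 from ESC to EB and 0.87 from ESC to N3 on its second or unmarked set. SNRPE had 1.26 from ESC to N3 on those sets and as a median, and SRSF8 had 0.56 on its second. MBNL2 had -0.87 (median) and -0.57 (second) from ESC to EB and 0.96 by both from N2 to N3. From N1 to N2, SF3A3 had 0.68 (median) and 0.85 (second), and CELF3 had -0.68 on its second. RBM47 had -0.045 as a median from ESC to EB. The cause was not tested.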
